A study of Mus musculus with 12 samples.

Results

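The genes described here are 10 members of the JAK, STAT and SOCS families that act below cytokine receptors containing the common gamma chain: Jak1, Jak3, Stat3, Stat5a, Stat5b, Stat6, Socs1, Socs2, Socs3 and Cish. They were picked by symbol, without use of their values, from a table of 23234 features, and all 10 were found in it. A total of 8 had a mean of at least 1 FPKM (fragments per kilobase of transcript, scaled to the mapped fragments of the library) over the 12 libraries and were tested, whereas Socs2 and Cish did not reach this level. RNA-seq was made from CD4+CD8+ thymocytes of C57BL/6 mice sorted as CD24hiTCRβlo, the stage before positive selection, to ask how the transcriptome depends on Bcl11b, a zinc finger transcription factor of T cells. The wild-type group held 5 libraries and the Bcl11bm/m group 3, both from newborns, and 4 libraries came from Bcl11bfl/fl:Cd4-Cre mice, titled cKO, whose age the labels do not state. The Bcl11bm allele arose from a frameshift, its product ends before the last zinc finger, and mice carrying 2 copies die as newborns, so all stages of T cell development in them lack normal Bcl11b. In Bcl11bfl/fl:Cd4-Cre mice the Cre transgene is driven by Cd4 regulatory sequences and removes Bcl11b only when cells approach the CD4+CD8+ stage. The titles, sources and design text name these cells, but the extraction protocol in the labels describes another population, NKT cells without CD4 and CD8, and genes of pre-selection CD4+CD8+ cells were abundant in every library. Genotypes were taken from the titles and the design text, since the free-text descriptions of the wild-type and the cKO libraries name another genotype. Nothing in the labels says that each library came from a separate mouse, so the p-values measure the spread between these libraries.

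Cytokines of the common gamma chain family, among them IL-2, IL-4, IL-7, IL-9, IL-15 and IL-21, bind receptors in which a private subunit pairs with the shared subunit encoded by Il2rg. The kinase JAK1 sits on the private subunit and JAK3 on the common gamma chain, and once brought together they phosphorylate the receptor and the STAT proteins that dock on it. STAT5A and STAT5B carry the signal of IL-2, IL-7, IL-9 and IL-15, STAT6 that of IL-4, and STAT3 that of IL-21 and of the IL-6 family. Phosphorylated STATs enter the nucleus and switch on target genes, among which are their own inhibitors CIS (encoded by Cish) and SOCS1 to SOCS3, which block the receptor or the kinase and recruit a ubiquitin ligase. In the thymus, CD4+CD8+ cells before selection respond poorly to IL-7, have little IL-7 receptor and express Socs1 strongly, and responsiveness returns after positive selection. SOCS proteins and IL-7 receptor signals have also been discussed as links between Thpok (Zbtb7b), which directs cells to the helper lineage, and Runx3, which directs them to the cytotoxic lineage.

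Sequences around the start sites of the feedback inhibitors are shown because these are the classical STAT targets among the members. The STAT motif TTCNNNGAA reads the same on both strands and was searched in windows from 250 bases before to 50 bases after annotated starts (RefSeq, GRCm38.p6). It was present in 8.30% of 32851 windows and occurred 2 or more times in 0.457% of them. Windows were found for 9 of the 10 members, 11 windows in all, and the motif lay in those of Cish and Socs3 and in none of the other members with a window. No window was found for Socs2. The longer spacing preferred by STAT6, in which 4 bases separate TTC from GAA, was in 6.95% of all windows and in none of the members' windows. A match is only a string of letters and was not compared with any binding data. Motif letters are in capitals.
Cish, chr9:107296654-107296683, plus strand: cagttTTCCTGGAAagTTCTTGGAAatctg
Socs3, chr11:117969507-117969525, minus strand: cagccTTCTTAGAAgggag
In Cish the matches covered positions 0 to 8 and 11 to 19 counted from the start site, which is position 0, and in Socs3 the match began at position −154. The motif-bearing genes differed widely in level in wild-type cells, with Socs3 at a median of 11.3 FPKM and Cish at 0.125 FPKM.

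The kinase genes are shown with their whole windows, in which the 50 bases from the start site onwards are in capitals, since Jak3 and Jak1 were the members with the largest differences from wild-type in Bcl11bm/m cells.
Jak3, chr8:71676133-71676432, plus strand: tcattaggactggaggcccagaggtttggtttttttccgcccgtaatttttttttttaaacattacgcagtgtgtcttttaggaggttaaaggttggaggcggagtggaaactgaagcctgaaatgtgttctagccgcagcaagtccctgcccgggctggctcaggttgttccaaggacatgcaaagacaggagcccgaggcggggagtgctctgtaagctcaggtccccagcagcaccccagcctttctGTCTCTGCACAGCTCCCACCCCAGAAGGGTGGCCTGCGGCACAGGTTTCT
Jak1, chr4:101265174-101265473, minus strand: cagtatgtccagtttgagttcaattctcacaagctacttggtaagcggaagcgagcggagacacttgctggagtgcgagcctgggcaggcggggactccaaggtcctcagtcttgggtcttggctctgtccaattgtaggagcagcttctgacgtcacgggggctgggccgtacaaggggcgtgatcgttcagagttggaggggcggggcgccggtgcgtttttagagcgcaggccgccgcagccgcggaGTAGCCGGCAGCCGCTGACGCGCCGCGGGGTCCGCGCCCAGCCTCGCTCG
Neither window held either STAT motif. The GC content of the Jak1 window was 64.7% and that of the Jak3 window 54.3%, against a median of 52.7% over all windows.

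The depth of the libraries had to be estimated, because FPKM values carry no read numbers. Steps in the low values gave about 3960000 to 6810000 fragments for wild-type, 2720000 to 4160000 for Bcl11bm/m and 10740000 to 45320000 for cKO libraries, so depth and the deletion by Cd4-Cre cannot be told apart, and neither can age if the cKO mice were not newborns. Bcl11b itself ranged from 132 to 292 FPKM in wild-type, 430 to 482 in Bcl11bm/m and 115 to 140 in cKO libraries, the last overlapping with wild-type. Thpok was at 0 to 0.216 FPKM in wild-type, 41.1 to 50.4 in Bcl11bm/m and 9.44 to 56.6 in cKO libraries, and Runx3 at 1.97 to 6.40, 14.2 to 18.3 and 11.5 to 34.7 FPKM. The summed level of 9 genes of pre-selection CD4+CD8+ thymocytes (Cd4, Cd8a, Rag1, Rag2 and others) was 4845 to 6594 FPKM in wild-type, 3493 to 4068 in Bcl11bm/m and 3307 to 5301 in cKO libraries, so genes of the labelled cell type were abundant in every library. Wild-type replicate 1 had the lowest median correlation with the other wild-type libraries, r = 0.912 across genes against 0.927 to 0.934 for the other 4. Summed marker levels of further cell types, in wild-type, Bcl11bm/m and cKO libraries in turn, were 16.6 to 23.7, 11.5 to 42.2 and 13.6 to 31.1 FPKM for B cells, 12.04 to 18.9, 32.5 to 115 and 4.54 to 52.3 FPKM for myeloid cells, 2.37 to 34.6, 10.6 to 29.8 and 0.850 to 5.07 FPKM for erythroid cells and 39.3 to 67.2, 143 to 164 and 82.2 to 128 FPKM for thymic stroma. The last sum was nearly all Pecam1, at 37.0 to 63.3, 142 to 162 and 80.9 to 127 FPKM, since 6 of the 8 stromal genes, not the same ones, stayed below 1 FPKM in every library of each group, and Epcam was called lower in both mutants (−1.61 and −1.18).

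In wild-type cells the members spanned from under 0.2 to over 100 FPKM. By median level Socs1 came first at 128 FPKM, followed by Stat5b at 116 and Jak1 at 98.6 FPKM, whose ranges overlapped with their neighbour above. Stat5a at 62.6, Stat6 at 47.8 and Stat3 at 43.3 FPKM came next, all 5 Stat5a values lying below all 5 Jak1 values, while neighbours within this trio overlapped. Socs3 followed at 11.3 and Jak3 at 5.89 FPKM, each above the next in the order in 5 of 5 libraries, and Socs2 and Cish were near 0. Thus, before selection, the inhibitor Socs1 was at the level of the most abundant STAT and JAK, and Jak3 was the lowest of the kinases and STATs measured here. In both mutants the order changed at the top and in the middle. Jak1 had the highest median, 155 FPKM in Bcl11bm/m and 123 in cKO cells, with Socs1 second, and Stat5a moved below Stat6 and Stat3. Jak3 had a higher median than Socs3 in both mutants, although the ranges of these genes overlapped there. The plot of all members by library shows these levels.

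**Figure D1:**
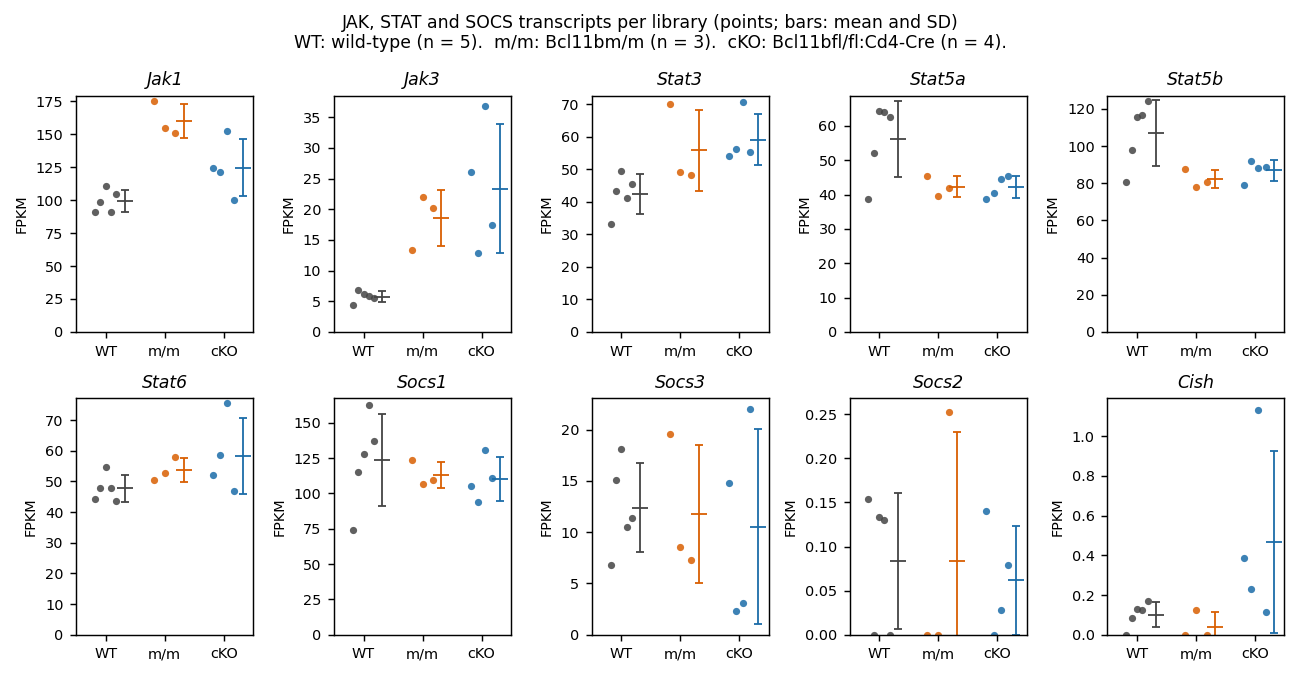
Expression of the 10 members in each library, in FPKM on a linear axis from 0, with wild-type (WT, n = 5), Bcl11bm/m (m/m, n = 3) and Bcl11bfl/fl:Cd4-Cre (cKO, n = 4) side by side; points are libraries and bars show the mean and SD. Jak3 of both mutants lies entirely above wild-type, the Socs1 groups overlap, and Socs2 and Cish are near 0.

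Jak3 was the member that differed most from wild-type, and it did so in both mutants. It was at 4.33, 6.79, 6.16, 5.89 and 5.57 FPKM in the wild-type libraries, given in replicate order here and throughout, at 13.3, 22.02 and 20.3 FPKM in the Bcl11bm/m libraries and at 26.2, 12.9, 36.9 and 17.5 FPKM in the cKO libraries. The lowest mutant library was above the highest wild-type library, and the spread was largest in the cKO group. The means were 5.75 ± 0.914 FPKM (SD, n = 5), 18.5 ± 4.60 FPKM (SD, n = 3) and 23.4 ± 10.6 FPKM (SD, n = 4). On the log2(FPKM + 1) scale, which understates the change of low genes, Jak3 was higher by 1.52 (SE 0.19, adjusted p = 0.00139, limma with Benjamini-Hochberg adjustment over 10780 features) in Bcl11bm/m and by 1.76 (SE 0.26, adjusted p = 0.00455, same test) in cKO cells. The call held under all 18 alternatives in Bcl11bm/m and all 19 in cKO cells, with differences of 1.38 to 1.73 and 1.51 to 1.996. Without cKO replicate 3, the highest library, the difference was 1.51 (adjusted p = 0.0108, limma).

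Jak3 lies on chromosome 8 from 74200195 to 74214474 (NCBIM37, plus strand). The annotation places Insl3 on the same strand, sharing 1362 bases with it, and the predicted gene Gm9933 on the opposite strand, sharing 379 bases. Fragments from the bases shared with Insl3 cannot be assigned by strand, and those shared with Gm9933 cannot either if the libraries were not stranded, which is not certain. Insl3, a peptide hormone gene of the testis, was at 0 to 2.43 FPKM in wild-type libraries, at 0, 4.86 and 0 in Bcl11bm/m and at 5.72, 0.0001, 8.90 and 3.10 FPKM in cKO libraries.

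Jak3 is known to be abundant in NK cells and in mature T cells, so the markers of these cells are given beside it. The summed level of 8 NK cell genes was 18.5 to 71.1 FPKM in wild-type, 216 to 416 in Bcl11bm/m and 66.5 to 190 in cKO libraries. Most of this sum was Gzma, a granule protease gene, at 16.4 to 67.1 FPKM in wild-type, 202 to 409 in Bcl11bm/m and 64.3 to 160 FPKM in cKO libraries. Gzma was called higher in both mutants, by 2.99 and 1.64, whereas Prf1, which encodes perforin, was called higher in Bcl11bm/m (0.86, adjusted p = 0.0264, limma) and lower in cKO cells (−0.80, adjusted p = 0.0257). Of these 8 genes, 4 stayed below 1 FPKM in every Bcl11bm/m library and 3 in every cKO library. The activating receptor gene Ncr1 was listed at 0 in all wild-type and all cKO libraries, and Klre1 in all wild-type and all Bcl11bm/m libraries. Klrd1 was listed at 0 in all wild-type libraries, at 0.552, 0.366 and 0 FPKM in Bcl11bm/m and at 1.18, 0.137, 5.49 and 0.111 FPKM in cKO libraries. Nkg7 was listed at 0 in 4 of 5 wild-type libraries and was at 0 to 1.20 FPKM in Bcl11bm/m and 0.121 to 2.60 FPKM in cKO libraries. Klrb1c, which encodes the NK1.1 receptor of NK and NKT cells and was singled out after its values were seen, was at 0, 0, 0, 0.605 and 0.170 FPKM in wild-type, at 0.301, 6.94 and 5.41 in Bcl11bm/m and at 5.14, 0.300, 21.8 and 2.11 FPKM in cKO libraries. Within each mutant group the libraries had the same order by Jak3 and by Klrb1c, as the plot of Jak3 beside Klrb1c shows. By the summed NK genes the order in Bcl11bm/m was the reverse, since the sum was 416, 216 and 227 FPKM where Jak3 was 13.3, 22.02 and 20.3 FPKM. In cKO libraries the order was the same, with sums of 149.5, 66.5, 189.8 and 79.9 FPKM where Jak3 was 26.2, 12.9, 36.9 and 17.5 FPKM. Of 7 genes of thymocytes after selection, Klf2, S1pr1, Itgb7 and Il7r were called higher in both mutants, with all mutant libraries above all wild-type libraries. Over all features 9.92% were called higher in Bcl11bm/m and 4.65% in cKO cells. All mutant libraries lay above all wild-type libraries for 14.6% of features in Bcl11bm/m and 5.44% in cKO cells. Klf2, a transcription factor gene of cells that leave the thymus, was at 1.07 to 2.61 FPKM in wild-type, 10.1 to 31.9 in Bcl11bm/m and 5.92 to 34.8 FPKM in cKO libraries. Its differences were 2.59 (adjusted p = 0.00216, limma) and 2.23 (adjusted p = 0.00885). The differences of Itgb7 were 3.45 and 2.95, and those of S1pr1, listed at 0 in 3 wild-type libraries, 1.30 and 1.27. Cd5 was called lower in Bcl11bm/m (−1.37) and Cd69 in cKO cells (−1.46). The summed level of the 7 genes, to which Cd5 and Itgb7 add most, was 89.2 to 194 FPKM in wild-type, 193 to 262 in Bcl11bm/m and 138 to 299 in cKO libraries. Of 9 genes of cells before selection, 6 were called lower in Bcl11bm/m and 1, Cd24a, in cKO cells, and none higher. Over all features 7.39% were called lower in Bcl11bm/m and 9.86% in cKO cells, so that 1 of 9 is near the background. The part of NK cells and mature T cells in the difference of Jak3 was not tested. In these bulk libraries more cells of a type and more RNA per cell cannot be told apart.

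**Figure D2:**
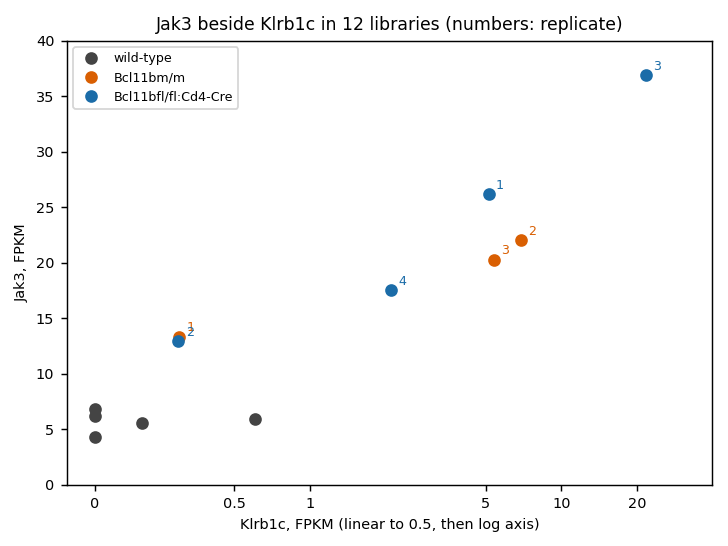
Jak3 (vertical axis, FPKM, linear) against Klrb1c (horizontal axis, FPKM, linear to 0.5 and logarithmic above) in the 12 libraries, coloured by genotype and with replicate numbers beside mutant libraries. The 7 mutant libraries lie above the 5 wild-type libraries in Jak3 and are ordered alike on both axes within each mutant group, whereas by the sum of all 8 NK genes the order is reversed in Bcl11bm/m (416, 216 and 227 FPKM in replicates 1 to 3) and the same as that of Jak3 in cKO libraries (149.5, 66.5, 189.8 and 79.9 FPKM in replicates 1 to 4).

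Jak1, the kinase on the private receptor subunits and also on interferon and IL-6 family receptors, was higher in Bcl11bm/m cells. It was at 90.9, 98.6, 111, 91.1 and 104 FPKM in wild-type libraries, at 175, 155 and 151 FPKM in Bcl11bm/m libraries and at 124, 121, 153 and 100.3 FPKM in cKO libraries. All Bcl11bm/m libraries lay above all wild-type libraries, whereas cKO replicate 4 lay within the wild-type range. The difference from wild-type was 0.69 (SE 0.11, adjusted p = 0.00413, limma) in Bcl11bm/m and 0.31 (SE 0.14, 95% interval 0.01 to 0.62, adjusted p = 0.151) in cKO cells, on the log2(FPKM + 1) scale. Jak1 was called in Bcl11bm/m cells under 17 of 18 alternatives, with differences of 0.59 to 0.81. Jak1 spans chromosome 4 from 100824972 to 100937887 (NCBIM37, minus strand).

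The JAK genes thus accounted for both members called in Bcl11bm/m cells, and Jak3 and Stat3 for both called in cKO cells. These were 2 of 8 members tested, or 25% of them, in each comparison, all of them higher. Over all features, 17.3% were called in Bcl11bm/m and 14.5% in cKO cells, 9.92% and 4.65% were called as higher and 7.39% and 9.86% as lower. With 8 genes, the share among the members cannot be read as different from this background. The higher and lower features called were 1069 and 797 in Bcl11bm/m and 501 and 1063 in cKO cells, and the latter split was 866 and 938 under median-ratio scaling. In Bcl11bm/m cells the larger part turned to lower under quantile normalization (1218 higher and 1257 lower) and with library quality weights (1631 and 1973). Median-ratio scaling moved the median difference of all features in cKO cells from −0.09 to 0.01, while the median over the members in the fit as reported was 0.07. In Bcl11bm/m cells these medians were −0.02 over all features and 0.04 over the members. Groups did not overlap for 2 of 8 members in each comparison, with the mutant above in each case, against 25.4% of all features in Bcl11bm/m (14.6% above and 10.8% below) and 16.1% in cKO cells (5.44% above and 10.6% below).

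Stat3 carries signals of IL-6, IL-21 and IL-10 and was higher in cKO cells, by a small margin over the threshold. It was at 33.1, 43.3, 49.5, 41.2 and 45.4 FPKM in wild-type libraries, at 70.0, 49.1 and 48.2 in Bcl11bm/m libraries and at 54.2, 56.1, 70.7 and 55.4 FPKM in cKO libraries. Every cKO library was above every wild-type library, while in Bcl11bm/m only replicate 1 stood well apart and replicates 2 and 3 were at the upper end of wild-type. The difference was 0.47 (SE 0.14, adjusted p = 0.0469, limma) in cKO and 0.38 (SE 0.17, 95% interval −0.01 to 0.76, adjusted p = 0.179) in Bcl11bm/m cells. The call in cKO cells rested on all libraries together. It held without wild-type replicate 1, at an adjusted p of 0.0355, and was lost when any other library of this comparison was left out, with differences of 0.38 to 0.53 and adjusted p of 0.0503 to 0.132 in limma.

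Stat5a and Stat5b, the STATs of IL-2 and IL-7 signals, had lower means in both mutants without passing the test. Stat5a was at 38.7, 52.0, 64.2, 64.0 and 62.6 FPKM in wild-type, at 45.4, 39.5 and 42.0 in Bcl11bm/m and at 38.6, 40.3, 44.6 and 45.3 FPKM in cKO libraries. Stat5b was at 80.4, 98.1, 116, 116 and 124 FPKM in wild-type, at 87.8, 78.2 and 80.8 in Bcl11bm/m and at 79.0, 91.8, 88.3 and 88.9 FPKM in cKO libraries. Wild-type replicate 1 had the lowest value of its group for both genes and lay among the mutants, whereas the other 4 wild-type libraries were above all 7 mutant libraries for both genes. With all libraries, Stat5a differed by −0.38 (SE 0.18, adjusted p = 0.190, limma) in Bcl11bm/m and −0.39 (SE 0.16, adjusted p = 0.134) in cKO cells, and Stat5b by −0.36 (SE 0.15, adjusted p = 0.154) and −0.28 (SE 0.14, adjusted p = 0.212). Without wild-type replicate 1, Stat5a differed by −0.51 in both mutants, with adjusted p of 0.0151 in Bcl11bm/m and 0.0109 in cKO cells (limma). Stat5b then differed by −0.46 and −0.38, with adjusted p of 0.0212 and 0.0274 (limma). Over all 10780 features the count called lower also rose without this library, from 797 to 1217 in Bcl11bm/m and from 1063 to 2056 in cKO cells. Since this library was picked out by its values, these are values of an alternative and not the call of the comparison.

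Stat6, which carries the IL-4 signal, was at 43.6 to 54.9 FPKM in wild-type, 50.6 to 57.9 in Bcl11bm/m and 46.8 to 75.5 FPKM in cKO libraries. The groups overlapped, and the differences of 0.17 (95% interval −0.07 to 0.41, adjusted p = 0.327, limma) and 0.27 (95% interval −0.06 to 0.59, adjusted p = 0.251) did not pass the test. Under all alternatives for these comparisons Stat6 was called in none.

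Stat5b, Stat5a and Stat3 are neighbours on chromosome 11 (NCBIM37). Stat5b spans 100642045 to 100712038 on the minus strand, Stat5a 100720665 to 100746483 on the plus strand and Stat3 100746412 to 100800854 on the minus strand. Stat5b and Stat5a are read away from each other across a gap of 8626 bases, and the 3′ ends of Stat5a and Stat3 share 72 bases. The paralogues share sequence, and of all 50-base words in their longest coding transcripts 15.8% of Stat5a were found in Stat5b and 11.8% of Stat5b in Stat5a. No other pair of members shared a 50-base word. The way in which shared reads were divided between Stat5a and Stat5b is not given in the sources used here, so their separate levels carry that uncertainty.

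**Figure D3:**
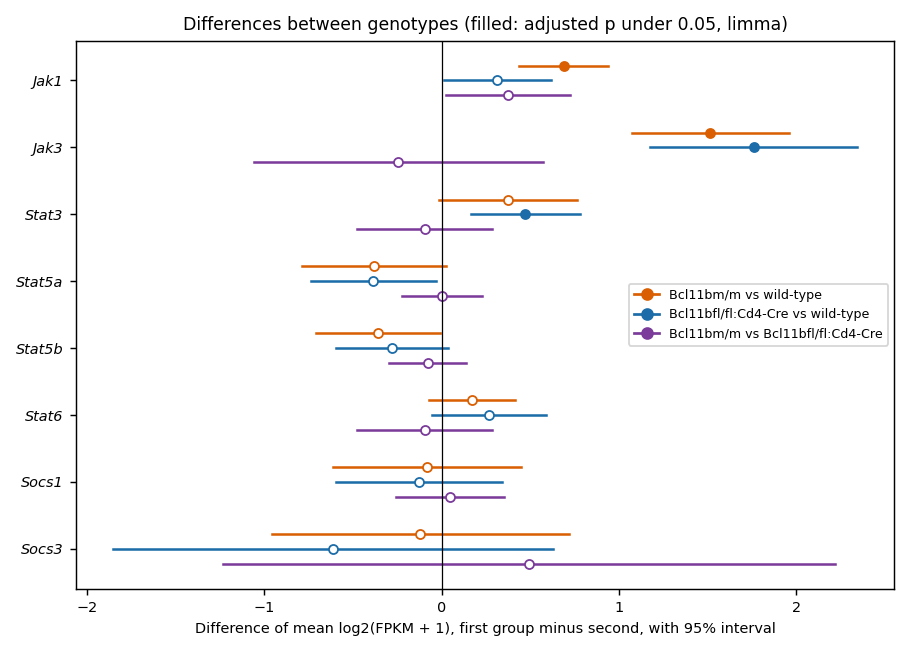
Difference of mean log2(FPKM + 1) (horizontal axis) with its 95% interval for the 8 members tested (vertical axis) in Bcl11bm/m against wild-type, cKO against wild-type and Bcl11bm/m against cKO cells. Filled points have an adjusted p under 0.05, which are Jak1 and Jak3 in the first comparison and Jak3 and Stat3 in the second, and Socs3 has the widest intervals.

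Ratios between genes of the same class within a library do not depend on scaling between libraries, and 8 such ratios were compared after the values had been seen, in 24 exact two-sided permutation tests. The ratio of Jak1 to Jak3 was 14.5 to 21.0 in wild-type, 7.03 to 13.1 in Bcl11bm/m and 4.13 to 9.37 in cKO libraries. The ratio of Stat3 to Stat5a was 0.643 to 0.854 in wild-type, 1.15 to 1.54 in Bcl11bm/m and 1.22 to 1.58 in cKO libraries, so Stat3 was below Stat5a in every wild-type library and above it in every mutant library. The ratio of Stat3 to Stat5b was 0.354 to 0.442, 0.597 to 0.797 and 0.611 to 0.801. For these 3 ratios both mutants lay outside the wild-type range in all libraries, wild-type replicate 1 included. Each reached the smallest p its test can give, 0.0357 for 3 against 5 and 0.0159 for 4 against 5 libraries (exact permutation test). After Benjamini-Hochberg adjustment over the 24 tests this was 0.0952, above the threshold. That outcome was nearly fixed by the design. Between the mutants the smallest p is 0.0571 (same test), and no Bcl11bm/m ratio could pass after adjustment. A cKO ratio could pass only if all 8 reached their smallest p. No conclusion is drawn from the adjusted values. The log2 ratio of Stat3 to Stat5a differed from wild-type by 0.77 in Bcl11bm/m and 0.87 in cKO cells, and that of Stat3 to Stat5b by 0.75 and 0.76. The ratio of Stat5b to Stat6 was 1.81 to 2.86 in wild-type, 1.39 to 1.74 in Bcl11bm/m and 1.17 to 1.90 in cKO libraries, the last overlapping with wild-type. Stat5a and Stat5b kept nearly the same proportion, with ratios of 0.439 to 0.555 over all 12 libraries.

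**Figure D4:**
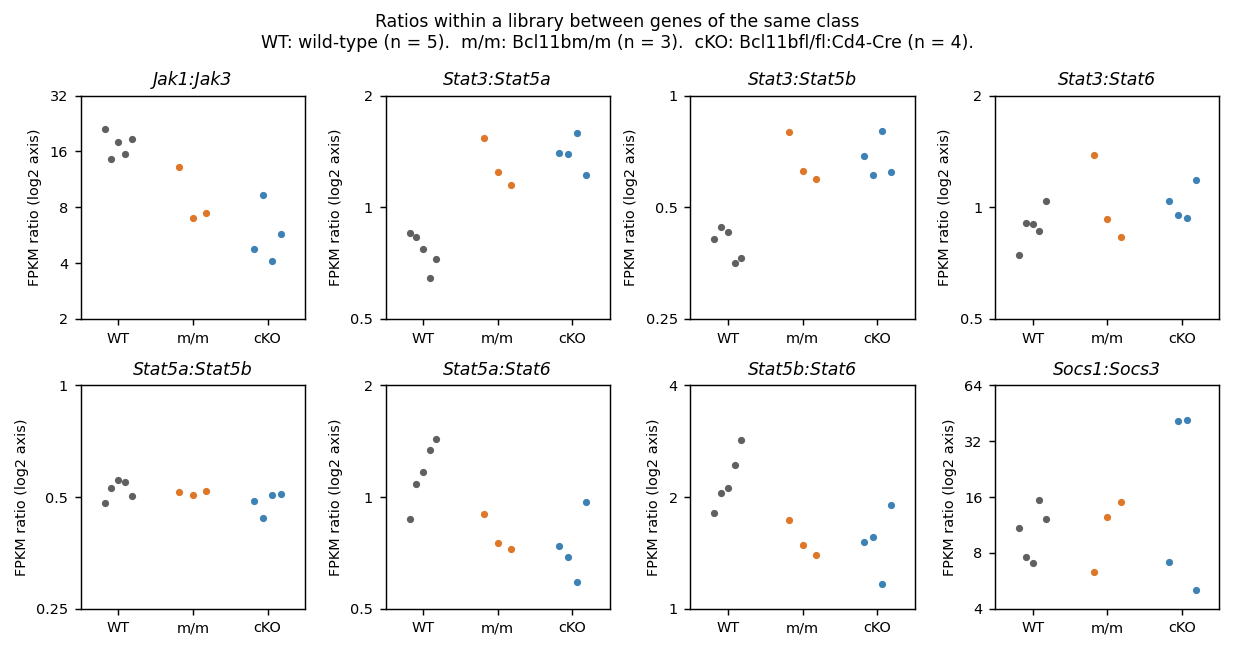
FPKM ratios between genes of the same class in each library (vertical axis, log2 scale), by genotype with n = 5 wild-type (WT), 3 Bcl11bm/m (m/m) and 4 Bcl11bfl/fl:Cd4-Cre (cKO) libraries. Jak1 to Jak3 is lower and Stat3 to Stat5a and Stat3 to Stat5b are higher in all mutant libraries than in any wild-type library, whereas Stat5a to Stat5b stays between 0.439 and 0.555.

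Among the inhibitors, Socs1, which binds JAKs and restrains IL-7 and interferon signals in thymocytes, was abundant in all groups. It was at 74.4, 115, 128, 163 and 137 FPKM in wild-type, at 123, 107 and 109 in Bcl11bm/m and at 105, 93.9, 131 and 111 FPKM in cKO libraries. All 7 mutant libraries lay within the wild-type range, whose lowest value was again wild-type replicate 1. The differences were −0.08 (95% interval −0.61 to 0.45, adjusted p = 0.853, limma) in Bcl11bm/m and −0.13 (95% interval −0.60 to 0.34, adjusted p = 0.724) in cKO cells. These intervals leave room for a decrease of 0.61 or an increase of 0.45 on the log2 scale, so a change of up to that size is not excluded by these libraries. Without wild-type replicate 1 the differences were −0.25 and −0.30 with adjusted p of 0.208 and 0.145 (limma). Socs1 is encoded on chromosome 16 from 10783901 to 10785629 (NCBIM37, minus strand).

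Socs3, which acts mainly on receptors that use gp130, had the widest intervals of the 8 members tested. It was at 6.84, 15.1, 18.1, 10.5 and 11.3 FPKM in wild-type, at 19.6, 8.55 and 7.30 in Bcl11bm/m and at 14.8, 2.27, 3.13 and 22.01 FPKM in cKO libraries. The cKO libraries fell on both sides of the wild-type range, replicates 2 and 3 below it and replicate 4 above it. Neither difference passed the test, with −0.12 (95% interval −0.96 to 0.72, adjusted p = 0.863, limma) in Bcl11bm/m and −0.61 (95% interval −1.85 to 0.63, adjusted p = 0.495) in cKO cells. The values of cKO replicates 2 and 3 correspond to about 62.3 and 139 fragments on the longest coding transcript, well above the 3 fragments that a count of 0 allows. The ratio of Socs1 to Socs3 was 7.07 to 15.4 in wild-type, 6.31 to 15.0 in Bcl11bm/m and 5.05 to 41.7 in cKO libraries. Socs3 lies on chromosome 11 from 117827393 to 117831361 (NCBIM37, minus strand).

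Cish and Socs2, which are sensitive readouts of STAT5 activity in many cells, were low in all groups. Cish was at 0, 0.0825, 0.128, 0.125 and 0.168 FPKM in wild-type, at 0, 0.124 and 0 in Bcl11bm/m and at 0.388, 0.232, 1.13 and 0.113 FPKM in cKO libraries. By estimated depth this corresponded to 0 to 2.86 fragments in the wild-type libraries and at most 1.43 in those of Bcl11bm/m, all under the 3 fragments that a count of 0 allows, and to 50.1, 7.11, 56.2 and 4.28 fragments in the deeper cKO libraries. Values under 0.155 to 0.266 FPKM in wild-type and 0.253 to 0.387 FPKM in Bcl11bm/m libraries could not be told from 0 at their depth, and such limits cover counting error only. cKO replicate 3 stood apart with 1.13 FPKM. In a fit of all features without a filter, Cish differed from wild-type by 0.37 (95% interval −0.04 to 0.78, adjusted p = 0.358, limma) in cKO cells and by −0.08 (95% interval −0.23 to 0.07, adjusted p = 0.684) in Bcl11bm/m cells. The predicted genes Gm17040 and Gm17041, on the opposite strand, share 1167 and 1459 bases with Cish.

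Socs2 was at 0.154, 0, 0.134, 0.130 and 0 FPKM in wild-type, at 0, 0 and 0.252 in Bcl11bm/m and at 0.140, 0, 0.0282 and 0.0787 FPKM in cKO libraries. This amounted to at most 4.46 estimated fragments in any library except cKO replicate 1, which had 26.9. The groups overlapped, and the differences in the fit without a filter were −0.005 in Bcl11bm/m and −0.03 in cKO cells. Thus the inhibitors were split in these cells into an abundant gene, Socs1, a moderately expressed and variable gene, Socs3, and a pair, Cish and Socs2, near the limit of detection in wild-type and Bcl11bm/m libraries and low in cKO libraries.

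The mutants were also compared directly, since a gene called in 1 mutant and not in the other is not shown to differ between them. None of the 8 members tested was called by limma, against 10.2% of all features, 7.63% as higher and 2.60% as lower in Bcl11bm/m cells. The groups overlapped for all 8, whereas they did not for 26.7% of all features (18.9% above and 7.76% below). At an unadjusted p under 0.05 there was 1, Jak1, higher in Bcl11bm/m cells by 0.37 (SE 0.15, adjusted p = 0.150, unadjusted p = 0.0395). Jak3 differed by −0.24 (95% interval −1.06 to 0.57, adjusted p = 0.680) and Stat3 by −0.10 (95% interval −0.48 to 0.28, adjusted p = 0.734). Stat5a differed by 0.00 (95% interval −0.22 to 0.23), Stat5b by −0.08, Stat6 by −0.10, Socs1 by 0.05 and Socs3 by 0.49 (95% interval −1.24 to 2.22). The count stayed at 0 under all 17 alternatives of the direct comparison. A difference in Jak3 of up to about 1 on the log2 scale in favour of cKO cells lies within the interval and is not excluded. The comparisons with wild-type share their 5 control libraries, so they are not independent of each other.

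Receptor subunits decide which cytokines the kinases and STATs can respond to, and 9 were examined, 8 of the common gamma chain family and Crlf2, which pairs with Il7r in the receptor for TSLP and does not use the common gamma chain. Of the 8 tested, 4 rose and 2 fell in Bcl11bm/m cells, and 2 rose and none fell in cKO cells, against 9.92% of all features called higher and 7.39% lower in Bcl11bm/m and 4.65% and 9.86% in cKO cells. The median difference was 0.91 in Bcl11bm/m and −0.12 in cKO cells, against −0.02 and −0.09 over all features. Il7r, the private subunit for IL-7, was at 0 to 0.0885 FPKM in wild-type, 12.2 to 25.8 in Bcl11bm/m and 1.45 to 8.96 FPKM in cKO libraries. It rose by 4.04 (adjusted p = 1.52e-05, limma) and by 2.01 (adjusted p = 0.00857), under all alternatives, and the values of these folds depend on the pseudocount because wild-type was near 0. Il9r rose in both mutants too, from 0.349 to 1.46 FPKM in wild-type to 11.5 to 19.0 in Bcl11bm/m and 7.38 to 20.9 FPKM in cKO libraries.

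Il2ra, the high-affinity subunit for IL-2, rose in Bcl11bm/m cells by 3.55 (adjusted p = 0.000727, limma), from 2.68 to 5.25 FPKM in wild-type to 33.5 to 117 FPKM. It was at 2.19 to 8.18 FPKM in cKO libraries, and the direct comparison of the mutants was past the threshold (3.37, adjusted p = 0.0121, limma). Il15ra rose by 1.80 in Bcl11bm/m cells, while Il4ra fell by 1.35 and Il21r fell by 1.41. Without wild-type replicate 1, 4 of the 8 subunits tested were called lower in cKO cells. Leaving out this library also moved the count over all features called lower, in Bcl11bm/m cells from 797 to 1217. The share of all features in cKO cells under this setting is not given here, so this count cannot be read as different from the background. Il2rg itself was abundant, at 205 to 275 FPKM in wild-type, 227 to 246 in Bcl11bm/m and 149 to 227 FPKM in cKO libraries, and did not pass the test. Il2rb, below the filter, was at 0 to 0.201 FPKM in wild-type, 0.0972 to 0.440 in Bcl11bm/m and 0.354 to 7.37 FPKM in cKO libraries, the highest being replicate 3. None of 7 cytokines, 6 of the family and Tslp, reached the filter, and each was below 1 FPKM in every library.

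**Figure D5:**
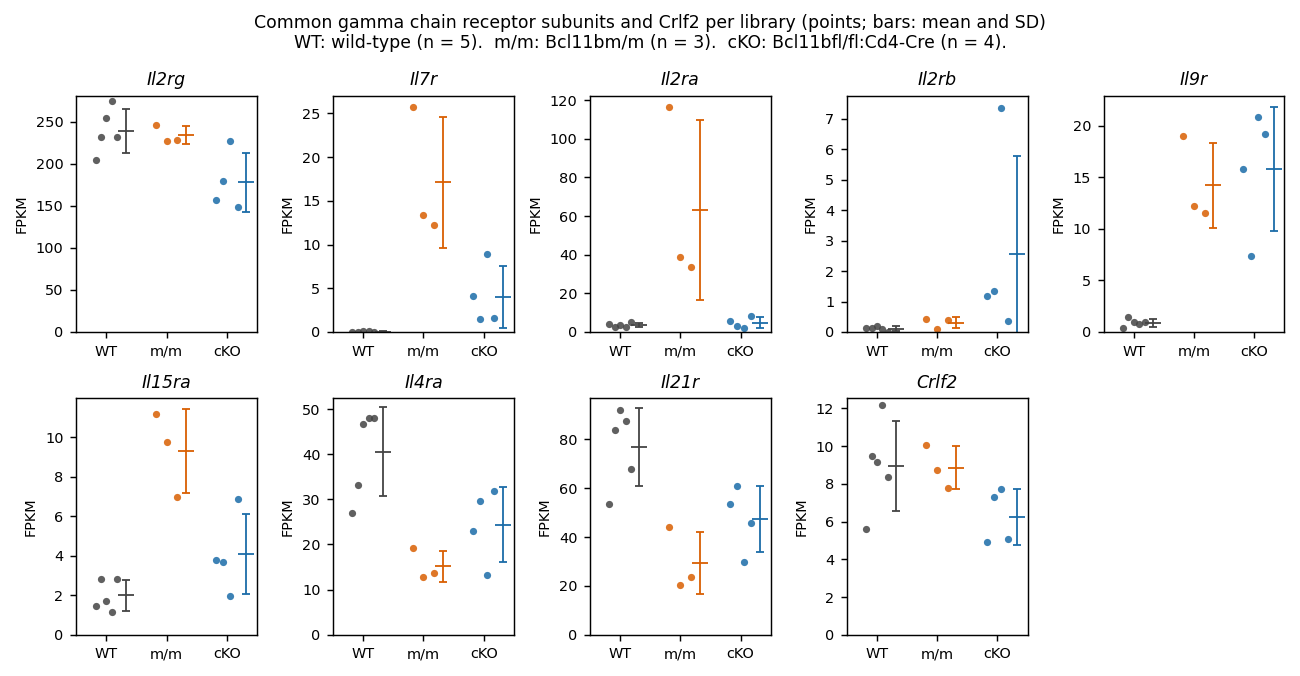
Expression of 8 common gamma chain receptor subunits and Crlf2 in each library, in FPKM on linear axes from 0, by genotype with n = 5 wild-type (WT), 3 Bcl11bm/m (m/m) and 4 Bcl11bfl/fl:Cd4-Cre (cKO) libraries; points are libraries and bars show the mean and SD. Il7r and Il9r are above wild-type in all mutant libraries, Il2ra and Il15ra in all Bcl11bm/m libraries, and Il2rg stays between 149 and 275 FPKM.

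Of the 5 other JAK and STAT genes, 2 rose in Bcl11bm/m cells and 1 in cKO cells, and none fell, where 17.3% and 14.5% of all features were called in either direction. With 5 genes these shares cannot be read as different from the background. Tyk2, a kinase of interferon and IL-12 receptors, was at 5.46 to 8.49 FPKM in wild-type, 10.5 to 12.4 in Bcl11bm/m and 9.15 to 13.8 FPKM in cKO libraries. It rose by 0.60 (adjusted p = 0.0289, limma) and by 0.56 (adjusted p = 0.0347). These calls held in 12 of 18 and 11 of 19 alternatives, and leaving out single libraries gave adjusted p of up to 0.102 in cKO cells. Stat4, which carries the IL-12 signal, was at 8.48 to 16.9 FPKM in wild-type and 30.2 to 48.5 FPKM in Bcl11bm/m libraries and rose there by 1.38 (adjusted p = 0.00621, limma). In cKO libraries it was at 14.6 to 31.3 FPKM, with a difference of 0.67 (adjusted p = 0.0813). Jak2, which serves the receptors of interferon-γ and IL-12, did not pass the test against wild-type in either mutant (20.5 to 28.3 FPKM in wild-type, 29.6 to 31.2 in Bcl11bm/m and 19.0 to 23.8 in cKO libraries). Between the mutants Jak2 was called higher in Bcl11bm/m cells by 0.45 (adjusted p = 0.0342, limma), under 6 of 17 alternatives and not when any single library was left out.

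Of the 4 other SOCS genes, Socs5 rose in both mutants and Socs6 in cKO cells, and with so few genes these counts cannot be read against the 17.3% and 14.5% of all features called. Socs5 was at 1.23 to 3.29 FPKM in wild-type, 6.10 to 8.56 in Bcl11bm/m and 3.43 to 7.43 FPKM in cKO libraries, with differences of 1.37 (adjusted p = 0.00421, limma) and 0.92 (adjusted p = 0.0270). Socs6 was at 4.59 to 7.09 FPKM in wild-type, 6.69 to 9.60 in Bcl11bm/m and 9.16 to 10.9 FPKM in cKO libraries, and its difference of 0.65 in the latter passed the test (adjusted p = 0.0116, limma). In cKO cells the call of Socs5 was lost when any 1 of wild-type replicates 4 and 5 and cKO replicates 1, 3 and 4 was left out, with adjusted p of up to 0.0919 (limma), and that of Socs6 held without each library. Partners of the SOCS box in the ubiquitin ligase (Tceb1, Tceb2, Cul5 and Rnf7) gave 0 calls of 4 tested in each comparison by limma, with 1 at an unadjusted p under 0.05 in each comparison with wild-type. Over all features 17.3% were called in Bcl11bm/m, 14.5% in cKO cells and 10.2% between the mutants. With 4 genes, 0 calls cannot be read as different from this background. Other names of the elongin genes in the list were not in the table.

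Of 12 other negative regulators of the pathway, 5 rose in Bcl11bm/m cells and 1 in cKO cells, and none fell. Over all features 9.92% were called higher in Bcl11bm/m and 4.65% in cKO cells, so that 1 of 12 is near the background. Sh2b3, which encodes the adaptor LNK, was at 9.74 to 16.5 FPKM in wild-type, 23.2 to 23.9 in Bcl11bm/m and 17.7 to 29.4 FPKM in cKO libraries. It rose by 0.87 (adjusted p = 0.0112, limma) and by 0.70 (adjusted p = 0.0362). Pias3, an inhibitor of STAT3, rose by 1.21 in Bcl11bm/m cells (adjusted p = 0.00164, limma), from between 3.26 and 4.90 FPKM to between 9.09 and 11.3 FPKM. The phosphatase genes Ptpn2, Ptpn6 and Ptprc rose there by 0.52, 0.46 and 0.43, close to the threshold, and these calls held in 7, 4 and 6 of 18 alternatives. Between the mutants Ptpn2 was higher in Bcl11bm/m cells by 0.56, a call that held in 14 of 17 alternatives and was lost without Bcl11bm/m replicate 2 or 3. In cKO cells the call of Sh2b3 was lost without any 1 of wild-type replicates 2, 4 and 5 and cKO replicates 1, 3 and 4, with adjusted p of up to 0.105 (limma). In Bcl11bm/m cells the call of Sh2b3 held in 16 of 18 alternatives. It was lost there without Bcl11bm/m replicate 2 and with the replicate number as a block, with adjusted p of up to 0.129 (limma).

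Of 10 known STAT target genes, 9 were tested. In Bcl11bm/m cells 2 rose and 1 fell, where 9.92% of all features were called higher and 7.39% lower. In cKO cells 0 rose and 1 fell, where the shares were 4.65% and 9.86%. With 9 genes these counts cannot be read as different from the background. In Bcl11bm/m cells Myc rose by 1.89 (adjusted p = 0.000920, limma), from 7.14 to 11.3 FPKM to 30.6 to 54.4 FPKM, and the survival gene Bcl2 rose by 0.88 (adjusted p = 0.0116). Ccnd3, a cyclin of proliferating thymocytes, fell by 1.15 (adjusted p = 0.0150), a call lost without Bcl11bm/m replicate 1 or 2, and it also fell by 1.11 in cKO cells (adjusted p = 0.0176), where no target rose and the call was lost without cKO replicate 1 or 3. The median difference over the 9 targets was −0.03 in Bcl11bm/m and −0.07 in cKO cells, close to the −0.02 and −0.09 of all features. Pim1, a frequently used STAT5 target, was at 42.5 to 74.6 FPKM in wild-type, 47.2 to 52.6 in Bcl11bm/m and 47.7 to 68.3 FPKM in cKO libraries and did not pass the test.

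Among 10 tested receptor subunits of other cytokines that signal through JAKs, the IL-12 receptor genes Il12rb2 and Il12rb1 rose in both mutants. Il12rb2 was at 1.24 to 2.94 FPKM in wild-type, 15.9 to 42.1 in Bcl11bm/m and 10.4 to 40.6 FPKM in cKO libraries. Its differences were 3.04 (adjusted p = 0.000617, limma) and 3.12 (adjusted p = 0.00186). In Bcl11bm/m cells Ifngr1 and Il10rb also rose and Il10ra and Il27ra fell, so that 4 of the 10 rose and 2 fell there and 2 rose in cKO cells, against 9.92% and 7.39% of all features in Bcl11bm/m and 4.65% higher in cKO cells. The call of Il10rb held in 7 of 18 alternatives and was lost when any 1 library other than wild-type replicate 2 was left out, and that of Il27ra was lost without Bcl11bm/m replicate 1 or 2. Ifngr1, the ligand-binding subunit for interferon-γ, was at 189 to 323 FPKM in wild-type, 810 to 868 in Bcl11bm/m and 273 to 377 FPKM in cKO libraries. Of 7 tested interferon response genes, 5 rose in Bcl11bm/m cells, with a median difference of 1.39, and 1, Irf1, rose in cKO cells by 1.11 (adjusted p = 0.0330, limma). Of all features 9.92% were called higher in Bcl11bm/m and 4.65% in cKO cells, and 1 of 7 genes cannot be read as different from that. The median difference of the list in cKO cells was 0.23. Of the myeloid markers, Fcer1g (2.86), Tyrobp (2.71) and Mpeg1 (1.08) were also called higher in Bcl11bm/m cells. Itgam had a lower mean there (−0.97, adjusted p = 0.140, limma). Bcl11bm/m replicate 1 had the highest Irf7 of its group (36.8 FPKM) and also the highest Lyz2 (37.7 FPKM) and Fcer1g (40.2 FPKM). The part of myeloid cells in the difference of the interferon response genes was not tested. In Bcl11bm/m cells the call of Irf7 held in 14 of 18 alternatives, that of Gbp2 in 10 of 18 and that of Ifit3 in 9 of 17, and the 5 calls fell to 2 without Bcl11bm/m replicate 1 and to 2 without replicate 2. Without wild-type replicate 3 or 5 they were 3. In cKO cells the call of Irf1 held in 11 of 19 alternatives and was lost when any 1 of 6 single libraries, 3 of each group, was left out.

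The features most like the SOCS members over the 12 libraries were listed as a description, by Pearson's correlation of log2(FPKM + 1), and the libraries share genotype and depth. For Socs1 these were Wsb2 (r = 0.959), Fam195b (r = 0.952) and Anxa11 (r = 0.948). For Socs3 they were Tmem154 (r = 0.895), Irf4 (r = 0.824) and Rpl30 (r = 0.817). Outside that rule, and noticed after the values were seen, Stat5a and Stat5b were each other's most alike feature of the 10780, with r = 0.960. Jak3 was most like Dhx33, with r = 0.970.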

How the data were processed

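RNA-seq of CD24hiTCRβlo CD4+CD8+ thymocytes was used, 5 wild-type, 3 Bcl11bm/m and 4 Bcl11bfl/fl:Cd4-Cre libraries. The authors mapped reads with TopHat2 and deposited FPKM per gene and library from Cufflinks with the iGenome annotation. The submitters' processing notes give versions 2.8.0 and 2.1.1 and the build mm9, and no scaling between libraries is stated. The label protocol and the paper's methods describe different cells (NKT cells without CD4 and CD8 in the protocol) and library kits, so chemistry and strand setting are uncertain. Positions are from GENCODE on NCBIM37 (mm9), promoter sequences from RefSeq on GRCm38.p6, and the builds were kept apart.

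Groups were compared pairwise on log2(FPKM + 1) with limma 3.58.1 in R 4.3.3 (lmFit, eBayes with trend), over the 10780 features that averaged 1 FPKM or more. Tests were two-sided, p-values were adjusted by Benjamini-Hochberg over these features, and 0.05 was the threshold. The fit was tested on simulated data. Ratios were compared by exact permutation with scipy 1.17.1 in Python 3.11.15.

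Depth was estimated from the steps of low FPKM values in 6582 genes with a single transcript. At the depth chosen, 66.2 to 71.4% of the values worth a few fragments lay within 0.1 fragment of a whole number. Values spread evenly would give 20% at a depth fixed beforehand, whereas here the depth was picked for a high share. Fragments per gene assumed the longest coding transcript. Replicate numbers in the labels are not said to pair libraries, and the fit without a block was kept.

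The genes named are the 10 members, Bcl11b, Thpok and Runx3, up to 5 called genes per pathway list and comparison by size of difference, and the 3 features most like each SOCS member. Il4ra, Il27ra and Jak2, which the rule leaves out, genes named with values that did not pass, marker genes named singly, Insl3 and the genes of the last sentences on likeness were added after values were seen. The members, lists and markers were chosen with earlier results of these data known. Marker lists covered pre-selection and post-selection thymocytes, B, myeloid, NK, erythroid and stromal cells. A member each of the pre-selection and post-selection lists is not reported here and was left out of the sums. Alternatives were a pseudocount of 0.1, no filter or a filter at 5 FPKM, scaling by median ratios or quantiles, 1 fit of all groups, weights for library quality, the replicate number as a block, robust empirical Bayes, no trend, and leaving out each library.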

Additional observations from a re-analysis of the deposited data

Results flagged for a closer look

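Among the genes named, 80 groups of 4 or 5 libraries were examined for a library far from the others, and 5 such values were found, where chance gives about 4. Stat3 in cKO replicate 3 was at 70.7 FPKM, against 54.2 to 56.1 in the other libraries of its group, and this library also had the highest Jak3 and Cish. Il12rb1 in cKO replicate 2 was at 23.0 FPKM, against 32.6 to 34.8. Ifngr1 in wild-type replicate 1 was at 189 FPKM, against 293 to 323. Ifit3 in wild-type replicate 2 was at 1.82 FPKM, against 0.242 to 0.544, and Thpok (Zbtb7b) in wild-type replicate 3 was at 0.216 FPKM, against 0 to 0.0471.

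The difference from wild-type also differed between the mutants for 8 of the 40 genes that the rule for named genes gave, by the direct limma comparison of Bcl11bm/m with cKO cells, and none of the 8 was one of the 10 JAK, STAT and SOCS members. On the log2(FPKM + 1) scale Bcl11bm/m cells were higher in Il2ra by 3.37, Bcl11b by 1.79, Myc by 1.72, Rsad2 by 1.37, Ifngr1 by 1.31, Bcl2 by 1.20, Ptpn2 by 0.56 and Il10rb by 0.46. Il2ra and Myc were called under all 17 alternatives, and Bcl11b and Ifngr1 under 16 of 17. Ptpn2 was called under 14 of 17 and was lost without Bcl11bm/m replicate 2 or 3. Bcl2 was called under 10 of 16, Rsad2 under 7 of 16 and Il10rb under 7 of 17. These last 3 calls were lost when any 1 of several libraries was left out. Outside the rule, Il27ra was lower in them (−1.03, adjusted p = 0.0321, limma), under 9 of 17 alternatives, and Jak2 was higher (0.45, adjusted p = 0.0342, limma), under 6 of 17. Over all features 10.2% were called in this comparison, and most of the 40 genes had been picked for their difference from wild-type.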

How the results depend on the processing

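The number of members called against wild-type was 2 in each mutant. In Bcl11bm/m cells it was 4 under median-ratio scaling and 4 with library quality weights, with Stat5a (−0.36 and −0.46) and Stat5b (−0.33 and −0.42) added as lower, and 2 to 4 when single libraries were left out. In cKO cells it was 1 without a filter and 1 without a mean-variance trend, where Stat3 was lost, 4 with quality weights and 1 to 4 when single libraries were left out. The 4 came from leaving out wild-type replicate 1, which also raised the calls over all 10780 features in cKO cells from 1564 to 2678. Under quantile normalization Stat3 was also called in Bcl11bm/m cells (0.44) and Jak1 in cKO cells (0.47). Directions changed only for differences that did not pass the test. These were, under quantile normalization, Socs1 in Bcl11bm/m (0.042) and cKO cells (0.022) and Stat5a between the mutants (−0.052). Between the mutants they were also Stat5a (−0.087) and Socs1 (−0.046) under median-ratio scaling and Stat5a (−0.00086), Stat6 (0.00078) and Socs3 (−0.046) with quality weights. Leaving out single libraries gave ranges that crossed 0 against wild-type in Bcl11bm/m cells for Socs1 (−0.25 to 0.028) and Socs3 (−0.52 to 0.13). Between the mutants the ranges crossed 0 for Jak3 (−0.48 to 0.0023), Stat5a (−0.048 to 0.051), Stat6 (−0.19 to 0.035) and Socs1 (−0.027 to 0.13). The cause was not tested. Of 432 member values under alternatives, 388 kept their direction and side of the threshold. Of 54 calls of other genes (Bcl11b, Thpok, Runx3 and genes of the pathway lists), 12 held under all alternatives and none changed direction.

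The labels do not say whether replicate numbers pair libraries. Same-numbered libraries deviated from their group means with r of −0.211 to 0.152 over 10 pairs, a measure that could miss a weak pairing. With the replicate number as a block, the count of members called fell to 1 in each mutant, Jak3. Jak1 in Bcl11bm/m cells (0.67, adjusted p = 0.155) and Stat3 in cKO cells (0.50, adjusted p = 0.0637, both limma) were not called, and Socs1 in Bcl11bm/m cells was at 0.132. Over all features the block gave 283 calls in Bcl11bm/m (against 1866), 456 in cKO (against 1564) and 30 between the mutants (against 1102), and it also took most calls from the pathway lists.

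Quality weights gave 3604, 3176 and 2173 calls in these comparisons. In Bcl11bm/m cells 1225 features were called without Bcl11bm/m replicate 1 and 2349 without wild-type replicate 1, against 1866 with all libraries. A mean of at least 5 FPKM gave 1189 in Bcl11bm/m and 656 between the mutants, and no filter gave 796 in cKO cells. Between the mutants the higher and lower calls were 822 and 280, and 609 and 465 under median-ratio scaling. Depth limits Cish and Socs2.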
